A study of Homo sapiens with 6 samples.

Results

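The 10 genes described here encode enzymes that make asparagine, serine and one-carbon units and transporters that carry amino acids into the cell, all of them known targets of the transcription factor ATF4. They were chosen by name, and no measured value entered the rule, although earlier results of these data were known at the time. The genes are ASNS, PHGDH, PSAT1, PSPH, SHMT2, MTHFD2, SLC7A5, SLC3A2, SLC7A1 and SLC38A2. Each name matched a row of the count table, so that 10 of its 31762 genes are described, and all 10 passed the filter on low counts.

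RNA sequencing was carried out on H460, a human cell line from a large cell carcinoma of the lung, labelled as wild type in genotype and grown in RPMI-1640 medium with fetal bovine serum. The control group held 3 libraries, and the fluoxetine group held 3 libraries of cells exposed to 20 µM of fluoxetine, an antidepressant that blocks serotonin reuptake, for 24 h. The vehicle of the controls is not given in the sources used here, and all libraries came from this 1 cell line. The question was how the transcriptome of the treated cells differed from that of the controls, and the study followed it towards endoplasmic reticulum (ER) stress and ATF4.

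When amino acids run short or unfolded protein collects in the ER, kinases phosphorylate the initiation factor eIF2α, general translation slows, and ATF4 mRNA is translated more efficiently. ATF4 protein then binds composite C/EBP-ATF elements, also called amino acid response elements, and activates genes for amino acid supply as well as genes of the stress response such as DDIT3 and TRIB3. In many tumour cells the serine pathway also feeds the mitochondrial folate enzymes, which pass one-carbon units on to purine and thymidylate synthesis.

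Sequence around the start sites was examined for the letters TGATGNAA, an abbreviated form of the C/EBP-ATF element, on both strands. RefSeq promoter windows of 300 bases (250 before to 50 after the start, GRCh38.p14) were used for 8 of the 10 genes (all but PSPH and SHMT2), at 11 start sites. A match was present in 3 of the 8 genes, at 1 of 2 start sites of ASNS, 1 of 3 of SLC3A2 and the 1 start site of SLC7A1. By comparison, 3.62% of all 35116 promoter windows, 4.46% of the 27305 genes with a window and 2.82% of the 10195 tested genes with a window held one. The genes were chosen as known ATF4 targets, so these shares are a description only. The matches are shown because they hold the letters of the element that ATF4 is known to bind, with the matched bases in capitals, each strand read 5′ to 3′ and positions counted from 0 at the RefSeq start.
ASNS, chr7:97872458-97872487, minus strand, match from -68 to -61: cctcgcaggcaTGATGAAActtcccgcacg
SLC3A2, chr11:62881725-62881748, plus strand, match on the reverse strand from 37 to 44: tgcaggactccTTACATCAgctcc
SLC7A1, chr13:29595663-29595692, minus strand, match from 7 to 14: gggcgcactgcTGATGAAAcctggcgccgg
The same letters stood before a start of CEBPG, a C/EBP protein that dimerizes with ATF4 and belongs to the comparison genes below.
CEBPG, chr19:33374060-33374089, plus strand, match from -42 to -35: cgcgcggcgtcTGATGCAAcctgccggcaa
The ASNS match lies inside the first exon of the longer gene model in GENCODE 29. A match of letters is a description of the sequence and does not show binding. The windows of PHGDH, PSAT1, MTHFD2, SLC7A5 and SLC38A2 did not hold these letters, which says nothing on elements elsewhere in those genes. Among other genes searched, matches were also found for the stress-side genes CHAC1 and ATF3, and the windows of ATF4, DDIT3, TRIB3 and SESN2 held none.

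The depth was 19343565 to 27823667 counts per library in the controls and 16157507 to 17113538 in treated libraries, so that every fluoxetine library was shallower than every control library, and 3 counts were worth 0.108 to 0.186 CPM. Levels are given as CPM (counts relative to the depth of the library, after TMM scaling between libraries) with the SD over 3 libraries. Control replicate 3 stood apart within its group. Its counts differed from those of the other controls with chi-square values of 12.4 and 21.7 per degree of freedom, against 5.63 between those controls. Fluoxetine replicate 2 differed from the rest of its group with values of 6.72 and 10.7, against 3.49 between fluoxetine replicates 1 and 3. Such values also rise with depth, which was highest in control replicate 3, so they are not compared between the groups. For the genes described here and the comparison genes below, a call that changed without control replicate 3 is given with and without it. The epithelial keratin genes KRT8 (22195 to 46271 counts per library) and KRT19 (18221 to 32048) were high, and KRT18 (4703 to 12880) fell with fluoxetine, from 511.5 to 311.6 CPM (log2 fold change -0.72, adjusted p 0.00162 by edgeR), whereas KRT8 and KRT19 were not called. In contrast, the epithelial genes EPCAM (4 to 11) and CDH1 (0 to 1) and the lung lineage gene NKX2-1 (1 to 9) were almost absent. The leukocyte gene PTPRC (0 to 2 counts) and the endothelial gene PECAM1 (0 to 1) were also near 0. Of the fibroblast genes, COL1A2 (0 to 2 counts) and DCN (1 to 8) were near 0, COL1A1 (59 to 118) was not called, and COL3A1 (193 to 550) fell from 18.3 to 12.7 CPM (log2 fold change -0.53, adjusted p 0.0145 by edgeR). The part of KRT18 and COL3A1 in the results below was not tested. In these bulk libraries fewer expressing cells and less RNA per cell cannot be told apart. Nothing in the labels says that the 3 libraries of a group came from separate cultures, so the p-values measure the spread between these libraries, which may be technical.

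Of the 10 genes, 0 rose and 1 fell with fluoxetine. The gene that fell was MTHFD2, by 19.1%. The count rests on the quasi-likelihood test of edgeR, adjusted after Benjamini and Hochberg over 15646 tested genes, at an adjusted p under 0.05, which called 7.76% of all tested genes higher and 5.32% lower, 13.1% in all. With a fold change of at least 2 as well, 0 of the 10 genes and 1.39% of all tested genes were called. At an unadjusted p under 0.05, ASNS and SLC38A2 were higher and MTHFD2 and SLC7A5 lower, 2 of 10 in each direction, against 15.8% of all tested genes higher and 12.9% lower. DESeq2 called 1 of the 10 higher and 1 lower, and limma-voom called 0 higher and 1 lower. The log2 fold change (fluoxetine over control) was positive for 4 of the genes and negative for 6, with a median of -0.05 against 0.03 over all tested genes. The 3 libraries of each group did not overlap for 1 of the 10 genes, MTHFD2, whose fluoxetine libraries were lower, while 17.5% of all tested genes did not overlap in the higher direction and 14.4% in the lower. The direction of the calls over all genes depended on the method: 1214 genes were higher and 833 lower, DESeq2 gave 1124 higher and 1177 lower, and removal of trends with GC content and length gave 1508 higher and 2251 lower.

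**Figure D1:**
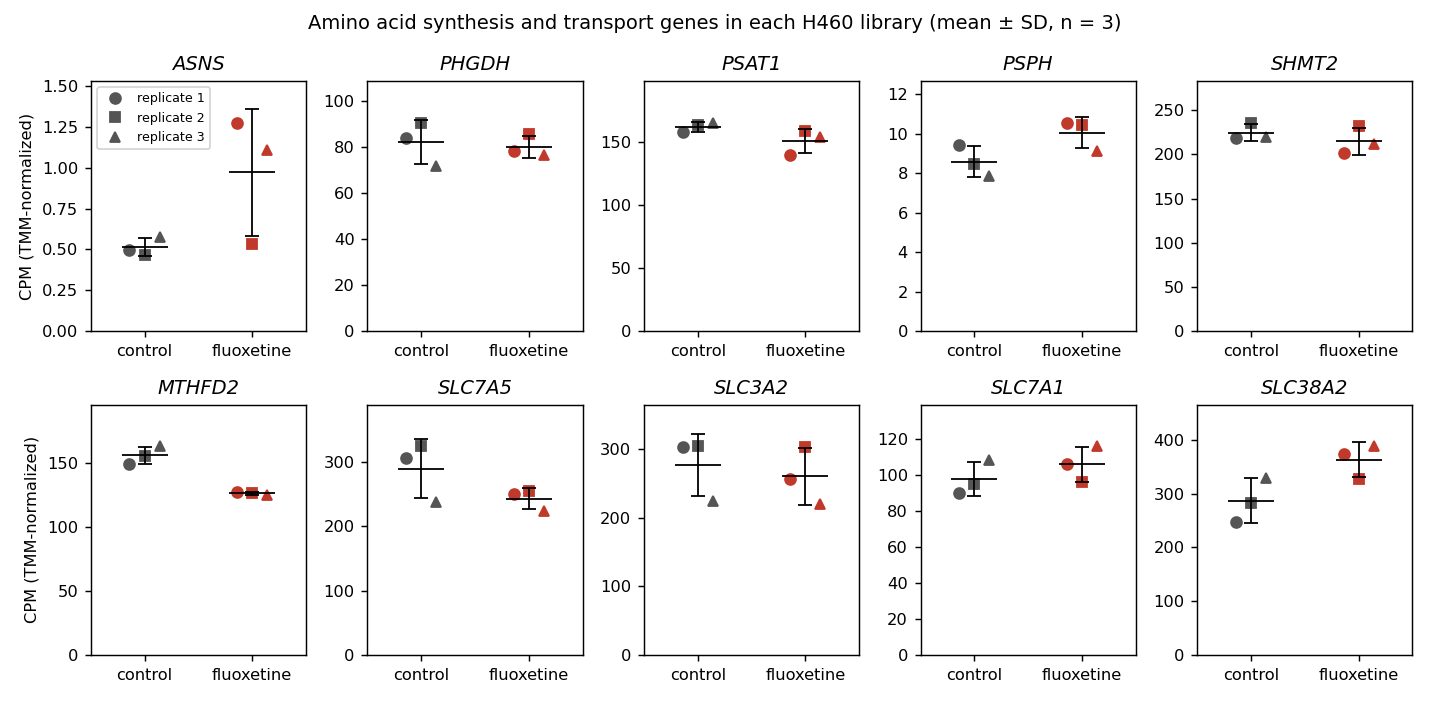
Level of each of the 10 genes in CPM (vertical axis, from 0) in the 3 control (grey) and 3 fluoxetine (red) libraries, with the symbol showing the replicate number, the line the group mean and the bar the SD. MTHFD2 is the gene of the 10 whose groups do not overlap, and ASNS lies at 0.469 to 1.28 CPM, far under the other genes.

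ASNS (ENSG00000070669, chr7:97852118-97872542, minus strand) encodes asparagine synthetase, which makes asparagine from aspartate and glutamine. It had 11, 9 and 16 counts in the control libraries and 21, 9 and 19 in the fluoxetine libraries, or 0.499, 0.469 and 0.576 CPM against 1.28, 0.535 and 1.11 CPM. Fluoxetine replicates 1 and 3 were above every control, and fluoxetine replicate 2 lay within the control range. The mean went from 0.515 ± 0.0555 to 0.972 ± 0.388 CPM (SD, n = 3), and the log2 fold change was 0.90 ± 0.39 (SE), with an interval from 0.05 to 1.76 and an adjusted p of 0.155 by edgeR. The change was thus not detectable at 9 to 21 counts, and its interval reached from 1.03-fold to 3.39-fold. Over 14 alternatives the log2 fold change was 0.63 to 1.15. DESeq2, which is 1 of them, gave ASNS no adjusted p, and ASNS was called in 0 of the others.

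Most of the coding sequence of ASNS lies in exons of a second gene as well. In GENCODE release 29, whose positions match the table for 96.8% of the 31635 genes both hold, the same-strand gene AC079781.5 (ENSG00000284707, chr7:97851688-97972985, minus strand) spans all of ASNS. It shares 1985 of the 4455 exon bases of ASNS, or 44.6%, and 1683 of its 1752 coding bases, or 96.1%. AC079781.5 itself had 1 to 4 counts in every library. How reads that lie in both genes were counted is not given in the sources used here, and under a rule that drops them the row would count only bases outside the shared exons. The ASNS value therefore cannot be read as the level of its mRNA, and ASNS was left out of the comparison of levels below.

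**Figure D2:**
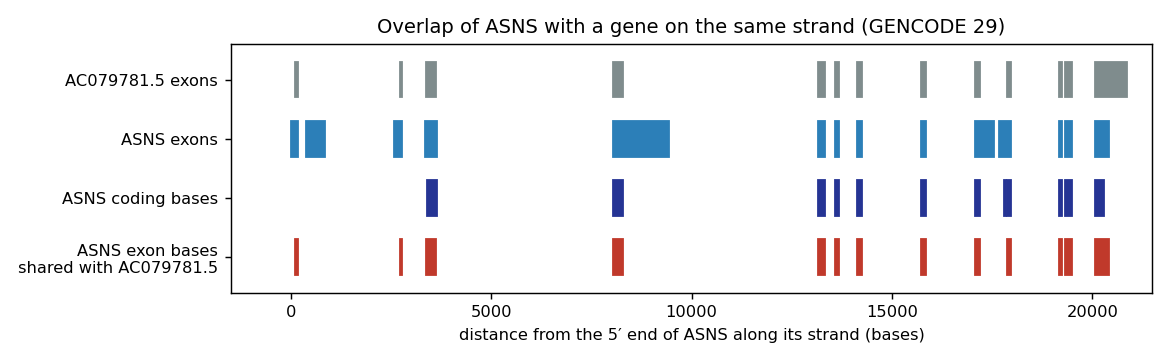
Exons of AC079781.5, exons of ASNS, coding bases of ASNS and the ASNS exon bases shared by both genes, against the distance in bases from the 5′ end of ASNS along its strand (GENCODE 29). The shared bases cover 96.1% of the coding sequence and 44.6% of all exon bases of ASNS.

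Because of these low counts, the genes with the most similar profile are given for ASNS as a description only. Among 9889 tested genes with a mean of at least 10 CPM, the profiles of STARD9, TEP1 and WDR17, each centred on its own mean, lay nearest to that of ASNS over the 6 libraries, with root mean square differences of 0.201, 0.204 and 0.206 on the log2 scale.

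The 3 enzymes that build serine from the glycolytic intermediate 3-phosphoglycerate were not called in either direction. PHGDH (ENSG00000092621, chr1:119648411-119744226, plus strand) catalyses the first step, the oxidation of 3-phosphoglycerate. It was at 84.0, 90.6 and 71.7 CPM in the control libraries and at 78.2, 85.6 and 76.4 CPM in the fluoxetine libraries. All fluoxetine values lay inside the control range. The log2 fold change was -0.03 ± 0.10 (SE), with an interval from 0.841-fold to 1.13-fold and an adjusted p of 0.850 (edgeR). It had no stable sign, at 0.0011 without control replicate 2 and -0.16 without control replicate 3 (adjusted p 0.203 by edgeR).

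PSAT1 (ENSG00000135069, chr9:78297143-78330093, plus strand), the aminotransferase of the next step, was at 157.4, 163.4 and 165.0 CPM in the control libraries and at 139.8, 158.0 and 153.6 CPM with fluoxetine. The groups overlapped through fluoxetine replicate 2, which was just above control replicate 1. The log2 fold change was -0.11 ± 0.07 (SE), with an interval from 0.831-fold to 1.04-fold and an adjusted p of 0.383 (edgeR). PSPH (ENSG00000146733, chr7:56011051-56051604, minus strand), the phosphatase that releases serine, was far lower, at 9.43, 8.49 and 7.85 CPM in the control libraries and 10.6, 10.5 and 9.14 CPM with fluoxetine. Fluoxetine replicates 1 and 2 were above every control, and replicate 3 lay within the control range. The log2 fold change of PSPH was 0.23 ± 0.13 (SE), with an interval from 0.958-fold to 1.43-fold and an adjusted p of 0.288 (edgeR), on 157 to 218 counts per library.

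Of the 2 mitochondrial one-carbon enzymes, SHMT2 was not called and MTHFD2 fell. SHMT2 (ENSG00000182199, chr12:57229327-57234935, plus strand) splits serine into glycine and a one-carbon unit on tetrahydrofolate. It was at 218.5, 235.7 and 219.3 CPM in the control libraries and at 201.1, 231.6 and 211.7 CPM in the fluoxetine libraries. Fluoxetine replicates 1 and 3 were below every control, and replicate 2 was inside the control range. The log2 fold change was -0.06 ± 0.08 (SE), with an interval from 0.852-fold to 1.07-fold and an adjusted p of 0.608 (edgeR). Opposite-strand genes cover 9.51% of its exon bases.

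MTHFD2 (ENSG00000065911, chr2:74198562-74217565, plus strand), the dehydrogenase and cyclohydrolase that oxidizes this one-carbon unit in mitochondria, was at 149.5, 155.9 and 163.3 CPM in the control libraries and at 127.7, 126.9 and 124.8 CPM with fluoxetine. Every fluoxetine library was below every control library. The mean fell from 156.2 ± 6.86 to 126.5 ± 1.47 CPM (SD, n = 3), and the log2 fold change was -0.30 ± 0.07 (SE), with an interval from -0.46 to -0.15 and an adjusted p of 0.0170 (edgeR). The call held in 13 of 15 alternatives and was lost without fluoxetine replicate 1 (-0.34, adjusted p 0.0799) and without fluoxetine replicate 3 (-0.32, adjusted p 0.0748). Opposite-strand genes cover 33.2% of the exon bases of MTHFD2, and they had 0 to 5 counts per library. Its named copy MTHFD2P1 had a mean of 18.8 counts.

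MTHFD1L, the mitochondrial enzyme of the following step, also fell. MTHFD1L, which makes formate for export to the cytosol, was at 55.9, 55.1 and 56.8 CPM in the control libraries and at 34.3, 42.9 and 41.9 CPM in the fluoxetine libraries. All fluoxetine values were below all control values. The mean fell from 56.0 ± 0.845 to 39.7 ± 4.69 CPM (SD, n = 3), and the log2 fold change was -0.50 ± 0.10 (SE), with an adjusted p of 0.00985 (edgeR). This call held in 14 of 15 alternatives and was lost without fluoxetine replicate 1 (-0.43, adjusted p 0.0552). SHMT1, the cytosolic counterpart of SHMT2, was at 53.2 ± 1.81 CPM in the controls and 53.0 ± 2.55 CPM with fluoxetine, a log2 fold change of -0.0034 with an adjusted p of 0.991 (edgeR), which was 0.018 when only library size was used for scaling.

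Ratios inside a library do not depend on the scaling between libraries, and they were compared by an exact two-sided permutation test, for which the smallest p with 3 against 3 libraries is 0.1. The log2 ratio of MTHFD2 over MTHFD1L was 1.48 ± 0.05 in the controls and 1.68 ± 0.19 with fluoxetine (SD, n = 3, exact p = 0.1), with every fluoxetine library above every control. The log2 ratio of SHMT2 over SHMT1 was 2.08 ± 0.05 against 2.02 ± 0.14 (exact p = 0.5), a difference within the spread. The log2 ratio of ASNS over ATF4 was -8.98 ± 0.32 against -8.09 ± 0.77 (exact p = 0.2), on the low counts of ASNS. Of the 4 ratios compared, none could pass 0.05 at this number of libraries.

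**Figure D3:**
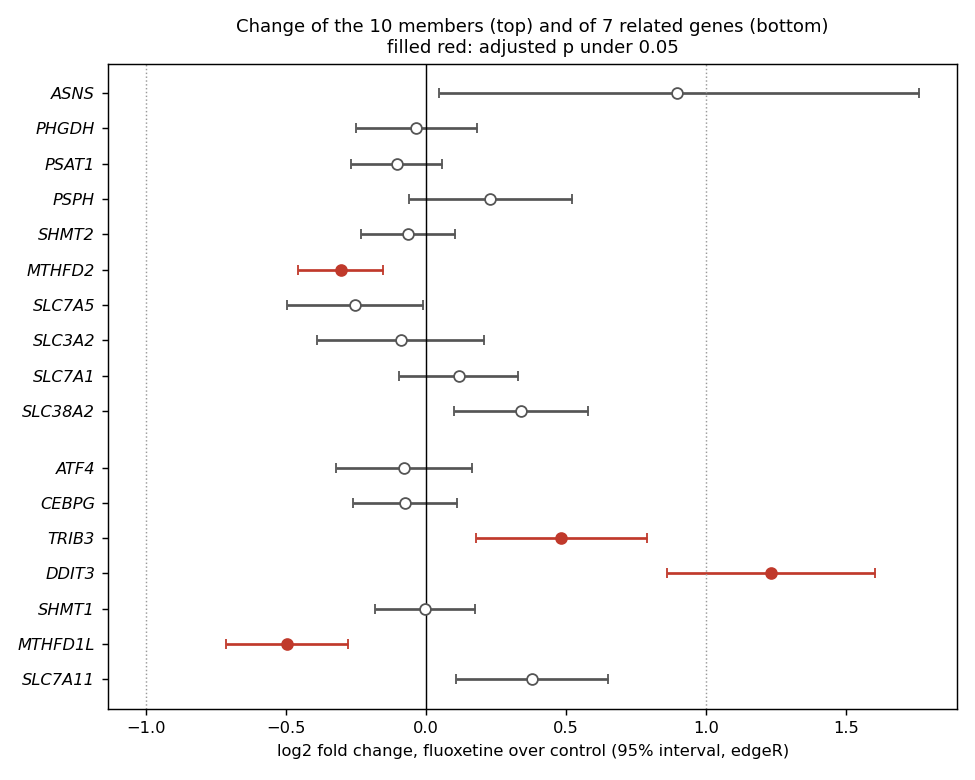
Log2 fold change (fluoxetine over control) with its 95% interval for the 10 genes (top) and 7 comparison genes (bottom), filled red where the adjusted p is under 0.05. MTHFD2 is the filled point among the 10 genes at -0.30, while DDIT3 lies at 1.23, TRIB3 at 0.48 and MTHFD1L at -0.50.

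Among the 4 transporter genes, SLC38A2 had a higher mean and SLC7A5 a lower mean with fluoxetine, and neither passed the adjusted threshold. SLC7A5 (ENSG00000103257, chr16:87830023-87869488, minus strand) encodes LAT1, the exchanger for large neutral amino acids such as leucine. It was at 306.7, 324.4 and 238.2 CPM in the control libraries and at 250.3, 254.6 and 224.2 CPM with fluoxetine. Control replicate 3 lay inside the fluoxetine range, and the remaining controls were above it. The mean was 289.8 ± 45.5 CPM in the controls and 243.0 ± 16.5 CPM with fluoxetine (SD, n = 3), and the log2 fold change was -0.25 ± 0.11 (SE), with an interval from -0.50 to -0.01 and an adjusted p of 0.159 (edgeR). Without control replicate 3 the value was -0.41 with an adjusted p of 0.00364, whereas leaving out control replicate 2 gave -0.20 (adjusted p 0.356). In all, SLC7A5 was called lower in 4 of 15 alternatives. Opposite-strand genes cover 5.71% of its exon bases.

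SLC3A2 (ENSG00000168003, chr11:62856102-62888875, plus strand) encodes 4F2hc (CD98), the heavy chain that pairs with LAT1 at the plasma membrane. It was at 302.1, 303.6 and 224.5 CPM in the control libraries and at 256.6, 302.6 and 220.3 CPM in the fluoxetine libraries. The groups overlapped almost completely, with replicate 3 lowest in both. The log2 fold change was -0.09 ± 0.13 (SE), with an interval from 0.764-fold to 1.16-fold and an adjusted p of 0.695 (edgeR). It was -0.25 without control replicate 3 (adjusted p 0.110) and -0.0065 without fluoxetine replicate 3 (adjusted p 0.985). The log2 ratio of SLC7A5 over SLC3A2, the light over the heavy chain, was 0.07 ± 0.04 in the controls and -0.09 ± 0.14 with fluoxetine (SD, n = 3, exact permutation p = 0.2), and fluoxetine replicate 3 lay within the control range.

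SLC7A1 (ENSG00000139514, chr13:29509410-29595688, minus strand) encodes CAT1, the carrier of arginine and lysine. It was at 90.0, 94.9 and 108.4 CPM in the control libraries and at 105.9, 96.2 and 115.9 CPM with fluoxetine. Fluoxetine replicates 1 and 2 lay inside the control range, and replicate 3 was above it. SLC7A1 had a log2 fold change of 0.12 ± 0.10 (SE), with an interval from 0.936-fold to 1.26-fold and an adjusted p of 0.480 (edgeR).

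SLC38A2 (ENSG00000134294, chr12:46358189-46372867, minus strand) encodes SNAT2, the sodium-coupled carrier of small neutral amino acids such as alanine and glutamine. It was at 246.4, 283.3 and 329.9 CPM in the control libraries and at 374.3, 326.2 and 387.7 CPM in the fluoxetine libraries. Fluoxetine replicates 1 and 3 were above every control, and replicate 2 was just under control replicate 3. The mean was 286.5 ± 41.9 CPM in the controls and 362.7 ± 32.3 CPM with fluoxetine (SD, n = 3), 26.6% more in the fitted fold, with a log2 fold change of 0.34 ± 0.11 (SE), an interval from 0.10 to 0.58 and an adjusted p of 0.0635 (edgeR). Without control replicate 3 the value was 0.42 with an adjusted p of 0.00716, and DESeq2 gave 0.31 with an adjusted p of 0.0448. Leaving out control replicate 1 gave 0.21 (adjusted p 0.256), and leaving out fluoxetine replicate 3 gave 0.27 (adjusted p 0.235). In all, SLC38A2 was called higher in 4 of 15 alternatives.

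Across the 9 genes other than ASNS, the 95% intervals of edgeR reached from a fall of 29.1% (SLC7A5) to a 1.49-fold rise (SLC38A2). Each interval holds for its own gene, so together they do not bound the 9 changes at 95%. The SD within a group was 2.47% to 16.4% of the mean among the controls and 1.16% to 15.9% among the treated libraries.

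Within the groups, several of the genes were high or low in the same libraries. In both groups replicate 3 was the lowest library for 4 of the 10 genes (PHGDH, PSPH, SLC7A5 and SLC3A2) and the highest for 2 (SLC7A1 and SLC38A2). The share of all tested genes with such a place was not counted. Over all tested genes, the deviations of control replicate 3 and fluoxetine replicate 3 from their group means correlated at 0.39. These places are therefore not read as a trait of the 10 genes. Control replicate 3 was at 0.755 of the mean of the other controls for SLC7A5 and at 0.741 for SLC3A2, whereas it was at 1.25 for SLC38A2 and 1.17 for SLC7A1. Among the comparison genes, ATF4 and TRIB3 were also lowest in replicate 3 of both groups, whereas CEBPG was highest there in both. For DDIT3, SHMT1, MTHFD1L and SLC7A11, replicate 3 did not hold the same place in both groups. The part of the library in these values was not tested, and this pattern was noticed after the values were seen.

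The distance between profiles, taken as the root mean square difference of log2 CPM centred on each gene's mean over the 6 libraries, was smallest between PSAT1 and SHMT2 (0.0478) and next between PHGDH and SHMT2 (0.0861). The subunit genes SLC7A5 and SLC3A2 differed by 0.116, while SLC38A2 differed from them by 0.403 and 0.395. With 6 libraries in 2 groups these values are a description only.

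**Figure D4:**
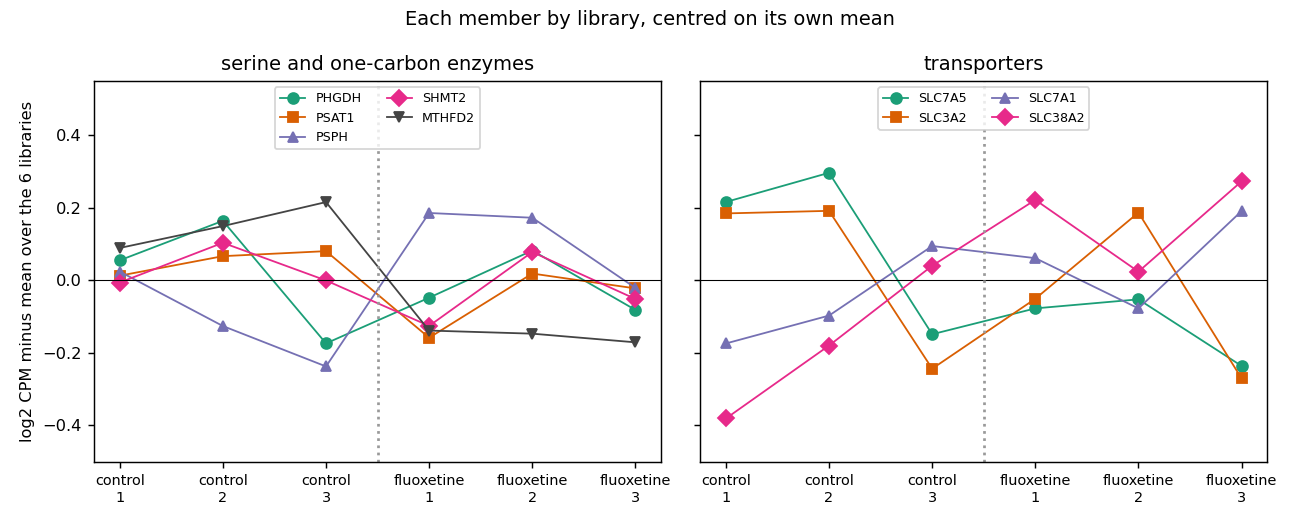
Log2 CPM of each gene in each library minus its own mean over the 6 libraries, for the serine and one-carbon enzymes (left) and the transporters (right). Lines join the points of 1 gene and stand for no order of the replicates. SLC7A5 and SLC3A2 are low in control replicate 3 and fluoxetine replicate 3, where SLC38A2 and SLC7A1 are high.

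Levels of different genes were compared as CPM per kilobase of the principal transcript. In the control group SLC3A2 was highest, at 128.0 ± 20.9, followed by SHMT2 at 88.5 ± 3.83, PSAT1 at 74.0 ± 1.82, SLC7A5 at 63.9 ± 10.0 and SLC38A2 at 58.6 ± 8.57 CPM per kilobase (SD, n = 3). The lowest PSAT1 library (71.9) was just above the highest SLC7A5 library (71.5), and the ranges of SLC7A5 and SLC38A2 overlapped, so that the order of the latter pair did not exceed their spread. Lower levels were found for MTHFD2 at 35.1 ± 1.54 and PHGDH at 31.8 ± 3.72, whose ranges overlapped as well, and then for SLC7A1 at 13.3 ± 1.30 and PSPH at 3.95 ± 0.37 CPM per kilobase. In the fluoxetine group SLC38A2 was at 74.2 ± 6.61, PSAT1 at 68.8 ± 4.36 and SLC7A5 at 53.6 ± 3.63 CPM per kilobase, so that the means of the 3 genes stood in another order than in the controls. The SLC38A2 and PSAT1 ranges overlapped there, and every SLC7A5 library was below both. SLC3A2 at 120.2 ± 19.1 and SHMT2 at 84.7 ± 6.11 had the highest means, although the range of SHMT2 (79.3 to 91.3) just overlapped with that of SLC38A2 (66.7 to 79.3), and PSPH at 4.62 ± 0.37 CPM per kilobase had the lowest, of the 9 genes compared.

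ATF4 itself and the stress-side ATF4 targets were examined as the closest comparison. ATF4 mRNA was at 308.1, 278.0 and 232.7 CPM in the control libraries and at 256.5, 286.5 and 232.4 CPM with fluoxetine. The groups overlapped, with a log2 fold change of -0.08 ± 0.11 (SE) and an adjusted p of 0.674 (edgeR). It was -0.22 without control replicate 3 (adjusted p 0.116) and -0.016 without control replicate 1 (adjusted p 0.944). Counts of mRNA do not show how much ATF4 protein was made. By western blot, the paper reported that ATF4 protein rose with the dose of fluoxetine. CEBPG was not called (-0.07, adjusted p 0.601 by edgeR), although its groups did not overlap. It was at 34.9, 35.3 and 37.1 CPM in the control libraries and at 33.6, 33.8 and 34.5 CPM with fluoxetine. Of all tested genes, 14.4% did not overlap in this direction. DDIT3, which encodes the ER stress factor CHOP, was at 4.54, 3.39 and 3.28 CPM in the control libraries and at 8.80, 7.91 and 9.55 CPM with fluoxetine. Its groups did not overlap, and it rose with a log2 fold change of 1.23 ± 0.17 (SE) and an adjusted p of 0.00142 (edgeR), a call that held in 15 of 15 alternatives. In GENCODE 29, where the position of DDIT3 differs from the deposited one, MARS on the opposite strand covers 27.2% of the exon bases of DDIT3. All overlapping genes cover 35.2% of them, and MARS had 2331 to 4736 counts per library. Whether strand was used in counting is not given in the sources used here.

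TRIB3, a pseudokinase induced by ATF4 and CHOP, rose from 41.9 ± 6.99 to 58.5 ± 8.12 CPM (SD, n = 3), and the log2 fold change was 0.48 ± 0.14 (SE), with an adjusted p of 0.0443 (edgeR). Its lowest fluoxetine library (49.5 CPM) was just above its highest control (47.2 CPM). The TRIB3 call held in 10 of 15 alternatives. It was lost with RLE scaling (adjusted p 0.0582), without control replicate 2 (0.126) or 3 (0.0642), and without fluoxetine replicate 1 (0.205) or 2 (0.140).

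The 4 lists of further genes held 103 genes, of which 98 had a row and 87 were tested. They were written from general knowledge with earlier results of these data known, and their counts are descriptions. In all, 16 of the 87 tested genes were higher and 8 lower. Over all tested genes, 7.76% were higher and 5.32% lower, and the counts of each list below stand beside these shares.

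Of the 22 tested genes for ATF4, its upstream kinases and its stress-side targets, 7 rose, 0 fell and 15 were not called, with a median log2 fold change of 0.20 against 0.03 over all tested genes. By edgeR at an unadjusted p under 0.05, 1 of them was lower, and both DESeq2 and limma-voom called 0 lower at an adjusted p under 0.05, while leaving out control replicate 3 gave 2. The 4 with the smallest adjusted p were NUPR1, a stress-induced chromatin protein (3.0, adjusted p 1.47e-04, from 6 to 8 counts in the control libraries to 37 to 47 with fluoxetine), EIF2AK3, the ER kinase PERK (0.91, adjusted p 0.00101), STC2, a secreted glycoprotein (0.50, adjusted p 0.00103), and DDIT3. The calls of NUPR1, EIF2AK3, STC2 and DDIT3 held in every alternative that tested them.

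Of the 24 tested genes of other amino acid transporters, 7 rose, 2 fell and 15 were not called, with a median of 0.22. SLC38A7, a lysosomal exporter of glutamine and asparagine, rose from 49.3 ± 3.38 to 105.3 ± 5.81 CPM (SD, n = 3), and the log2 fold change was 1.10 ± 0.08 (SE), with an adjusted p of 2.42e-05 (edgeR). The taurine transporter gene SLC6A6 (0.81, adjusted p 0.00117), SLC38A6 (0.59, adjusted p 0.00245) and the lysosomal amino acid carrier gene SLC36A1 (0.63, adjusted p 0.00438) rose as well. The calls of these 4 genes held in 15 of 15 alternatives. The 2 genes that fell, named after their values were seen, were the glutamate transporter gene SLC1A3 (-0.56, adjusted p 0.0136) and SLC1A5, the glutamine carrier ASCT2 (-0.40, adjusted p 0.0194). Without fluoxetine replicate 1 neither was called, with 0 of the list lower, and SLC1A5 was also lost without control replicate 2 or fluoxetine replicate 3, where 1 of the list was lower. SLC7A11, the cystine transporter gene that also pairs with the SLC3A2 product, was at 405.5, 478.9 and 579.2 CPM in the control libraries and at 690.9, 565.3 and 645.8 CPM with fluoxetine. The groups overlapped through fluoxetine replicate 2, and the log2 fold change was 0.38 ± 0.12 (SE), with an adjusted p of 0.0678 (edgeR), which became 0.49 and 0.00494 without control replicate 3. Leaving out control replicate 1 gave 0.23 (adjusted p 0.259), and in all SLC7A11 was called higher in 4 of 15 alternatives.

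Of the 22 tested genes of serine, glycine, folate and transsulfuration metabolism, 2 rose, 3 fell and 17 were not called, with a median of -0.08. Those that fell included, besides MTHFD1L, ATIC, which closes the purine ring with a folate-borne one-carbon unit (-0.27, adjusted p 0.0277 by edgeR). The ATIC call held in 12 of 15 alternatives and was lost without control replicate 2, fluoxetine replicate 1 or fluoxetine replicate 3. Those that rose included the mitochondrial formyltetrahydrofolate dehydrogenase gene ALDH1L2 (0.44, adjusted p 0.0494), named after its values were seen, whose call held in 8 of 15 alternatives. Leaving out 1 library at a time gave 1 to 3 of the list higher and 1 to 6 lower, with 1 lower without fluoxetine replicate 1, 2 without control replicate 2 or fluoxetine replicate 3, and 6 without control replicate 3. With GC content and length trends removed, 4 of the list were higher and 10 lower, and DESeq2 gave 2 higher and 6 lower. Over all genes, removal of the trends gave 1508 higher and 2251 lower of 15600, and DESeq2 gave 1124 higher and 1177 lower.

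Of the 19 tested genes of other non-essential amino acids, 0 rose, 3 fell and 16 were not called, with a median of -0.10. Those that fell included ALDH18A1, an enzyme gene of proline synthesis (-0.29, adjusted p 0.0196), and ASRGL1, an asparaginase gene (-0.95, adjusted p 0.0236). The counts of ASRGL1 were low, at 50, 43 and 66 in the control libraries and 19, 18 and 23 with fluoxetine. By edgeR at an unadjusted p under 0.05, 1 of the list was higher and 4 were lower, and DESeq2 and limma-voom called 0 higher. The 3 calls became 0 without control replicate 2 or fluoxetine replicate 1, 1 without control replicate 1 or fluoxetine replicate 3, and 6 without control replicate 3. Opposite-strand genes cover 16.8% of the exon bases of ASRGL1, 23.8% of those of SLC1A5 and 15.1% of those of EIF2AK3.

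**Figure D5:**
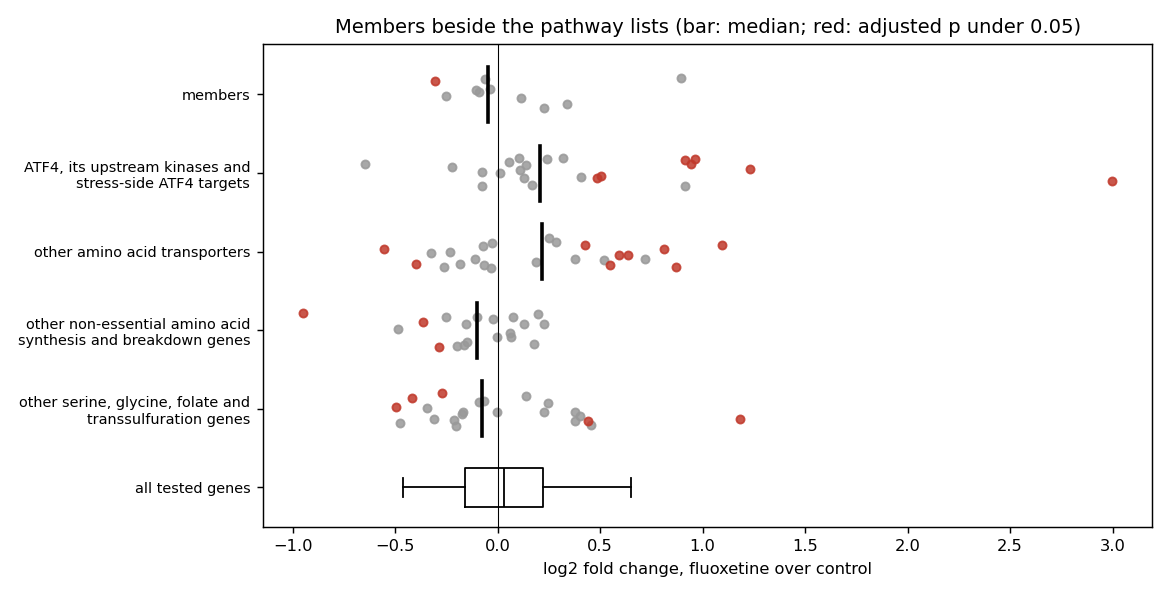
Log2 fold change (fluoxetine over control) of each tested gene of the 10 genes and of the 4 lists, red where the adjusted p is under 0.05, with a bar at the median of each set. The box for all tested genes spans the quartiles with whiskers at the 5th and 95th percentile. The medians lie at -0.05 for the 10 genes and at 0.20 for the stress-side list.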

How the data were processed

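RNA sequencing of H460 cells was analysed in 3 control and 3 fluoxetine libraries, grouped and numbered from the sample titles and treatment labels. In the deposited table, each gene has 1 unnormalized read count per library. Its further columns, which were not used here, hold the authors' own comparison: the log2 fold change, and deposited p-values before and after adjustment. The submitters' processing notes name fastp 0.20.0, HISAT2 2.1.0, HTSeq 0.10.0 and DESeq2 1.18.1. The genome build, annotation, counting mode and use of strand are not given in the sources used here.

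The test of the counts was run with edgeR 4.0.16 under R 4.3.3 (TMM, filterByExpr, glmQLFit and glmQLFTest without covariates) and Benjamini-Hochberg adjustment over 15646 genes. The scripts were tested on simulated data. Alternatives were DESeq2 1.42.0, limma-voom (limma 3.58.1), RLE or library size scaling, no filter, at least 10 counts in every library, removal of trends with GC content and length (known for 99.7% of tested genes), rows of 1 symbol summed, a replicate block and leaving out each library. Ratios used an offset of 0.5. Profiles used log2 CPM with a prior count of 2. Depth was 16157507 to 27823667 counts, and floors of 3 counts cover counting error only. The intervals of fold changes come from the edgeR fit and include the spread between libraries.

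The genes and lists were chosen with earlier results of these data known. Besides the 10 genes, the text names up to 4 called genes of each list by smallest adjusted p, and ATF4, DDIT3, TRIB3, CEBPG, SLC7A11, SHMT1 and MTHFD1L whatever they show. Of the marker genes, CD68, CD3E, CDH5, SFTPB and SCGB1A1 were not analysed here. Some genes that this rule covers are not reported here.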

Additional observations from a re-analysis of the deposited data

How the results depend on the processing

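Of the 10 genes, 0 were higher with fluoxetine, and this count was 1 with DESeq2, without a filter on low counts and with the replicate block (SLC38A2 in each), 2 at an unadjusted p under 0.05, and 0 to 1 when 1 library was left out (1 without control replicate 3). The count lower was 1, and it was 2 without a filter, with the replicate block, with GC content and length trends removed and at an unadjusted p under 0.05, 0 with a fold change of at least 2, and 0 to 2 when 1 library was left out (0 without fluoxetine replicate 1 or 3, 2 without control replicate 3). The block gave SLC7A5 an adjusted p of 0.0193 and SLC38A2 one of 4.43e-04. Same-numbered libraries had correlations of 0.03, 0.12 and 0.39 between their deviations from the group means, so the numbers were not taken to pair the samples, and control replicate 1 correlated best with fluoxetine replicate 2 (0.32). Over all tested genes, 1214 were higher, 2231 with the block and 409 to 1627 with 1 library left out, and 833 were lower, 1516 without a filter, 1787 with the block, 2251 with the trends removed (1508 higher) and 163 to 2006 with 1 library left out. In the 4 lists, 16 genes were higher (11 to 18 with 1 library left out) and 8 lower (18 with the trends removed, 1 to 16 with 1 library left out). PHGDH lay between -0.16 and 0.0011 with 1 library left out and changed sign without control replicate 2 (adjusted p 0.996), and SHMT1 changed sign with library size scaling (0.018, adjusted p 0.912). The 4 ratios kept their direction in all 8 alternatives run for each. The cause of these differences was not tested. The counts of ASNS (9 to 21) set the widest interval among the 10 genes.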
